A study of Mus musculus with 18 samples.

Results

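Flrt1, Flrt2 and Flrt3, which encode the FLRT family of leucine-rich repeat adhesion proteins, were described across cortex libraries taken after spreading depolarization (SD) together with 5 genes for their receptors, the latrophilins Adgrl1, Adgrl2 and Adgrl3 and the netrin receptors Unc5b and Unc5d. These 8 genes were picked by family membership, out of 13029 genes listed in both stimulation systems, and were proposed after results of these libraries had been seen, so their fold changes are given as descriptions. All 8 were listed in both systems, and all 8 passed the filter at a mean of 0.5 FPKM (fragments mapped, scaled to transcript length and library size). In SD a front in which neurons and glial cells lose their ion gradients creeps through the cortex. It was set off 4 times within 2 h, at 30 min intervals, in healthy female mice aged 7 to 8 weeks. The KCl system used wild-type C57BL/6 mice and comprised 3 SD hemispheres after focal KCl, the 3 contralateral hemispheres of the same mice, and 3 sham mice given NaCl. The optogenetic system used C57BL/6 mice heterozygous for Thy1-ChR2-YFP, in which the Thy1 promoter drives a light-gated channel in neurons, and comprised 3 SD hemispheres after light at 2 mW for 20 s, the 3 contralateral hemispheres of the same mice, and 3 sham mice that carried the same transgene.

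FLRT proteins span the membrane once and carry leucine-rich repeats on the cell surface. Through these repeats they bind latrophilins, adhesion G protein-coupled receptors, across the synaptic cleft, and Unc5 receptors, which give repulsion in migrating neurons and growing axons. In the cortex the family is known for guiding neuron migration before birth and for shaping excitatory synapses later. Teneurins, a further family of ligands, share the latrophilins with the FLRT proteins.

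The summed FPKM of a library ranged from 223564 to 237318 for KCl experiments and from 217205 to 225813 for optogenetic ones. Read counts are not given, so the depth behind each value is unknown. Stimulus and side went with SD in every comparison of hemispheres and cannot be told apart from it. Excitatory cortical neuron markers (Slc17a7, Camk2a, Neurod6 and Tbr1, summed) were at 404.2 to 466.2 FPKM in all libraries. Choroid plexus markers, which mark ventricular tissue, varied between 4.06 and 1137 FPKM in sum over all libraries. In bulk tissue fewer cells of a type and less RNA per cell cannot be told apart.

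Adgrl1 was the most abundant of the 8 genes. It averaged 50.2 ± 3.12 FPKM in NaCl sham and 53.5 ± 7.75 FPKM in optogenetic sham (standard deviation, n = 3 mice each, as for all group means). Flrt2 came next with 12.4 ± 2.33 and 9.66 ± 0.641 FPKM, and neither gene's sham libraries overlapped with those of its neighbours in the order. Adgrl2 followed with 7.80 ± 0.901 FPKM in NaCl sham and 7.34 ± 0.418 FPKM in optogenetic sham. Adgrl3, Unc5d and Flrt1 lay between 5.10 and 7.60 FPKM in all sham libraries. Their order differed between the systems. Unc5b, at 2.48 ± 0.307 FPKM, was lowest in NaCl sham. Flrt3, at 4.10 ± 0.526 FPKM, was lowest in optogenetic sham, where its libraries overlapped with those of Unc5b.

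**Figure D1:**
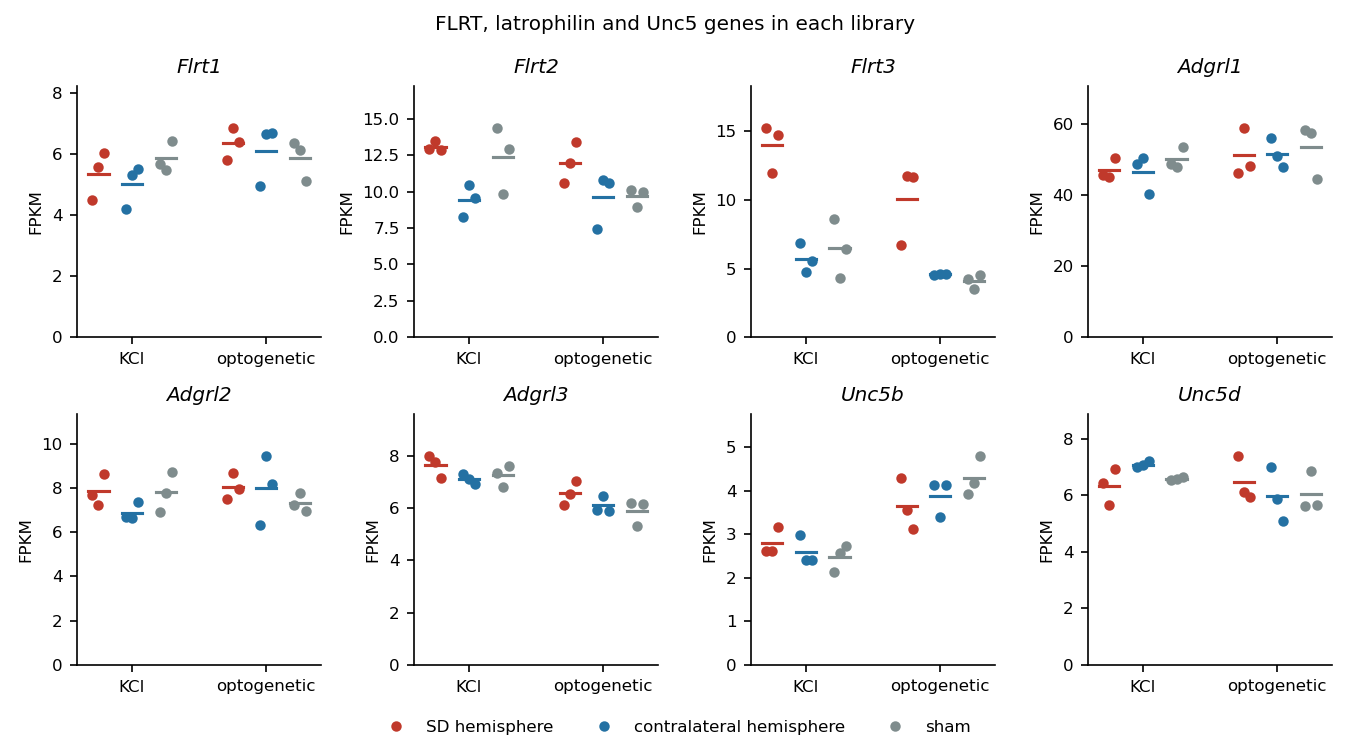
FPKM of the 8 genes in each of 18 libraries, with points for mice, short lines for group means, and the SD hemisphere, contralateral hemisphere and sham side by side within each system. Flrt3 is the gene whose SD libraries lie above every contralateral and sham library in both systems.

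Flrt3 was about 2-fold more abundant in the SD hemisphere than in the other groups of both systems. In the KCl system Flrt3 was at 15.2, 11.96 and 14.7 FPKM in the SD hemisphere, at 6.84, 4.75 and 5.57 FPKM in the contralateral hemisphere and at 8.64, 4.35 and 6.44 FPKM in NaCl sham. After light it was at 6.74, 11.8 and 11.7 FPKM in the SD hemisphere, at 4.50, 4.58 and 4.62 FPKM in the contralateral hemisphere and at 4.27, 3.51 and 4.52 FPKM in sham. Each SD library lay above each contralateral and each sham library of its system, and the optogenetic SD library of mouse 1 was closest to them. Taken pair by pair, 4.42% of genes had all SD libraries above sham and 6.28% above contralateral after KCl, and 6.04% and 5.26% did so after light. Over both systems at once, 0.681% of genes (88 of 12930) had SD libraries above both other groups without overlap in both systems.

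The log2 fold change of Flrt3 in the optogenetic SD hemisphere against sham was 1.16 (SE 0.19, limma adjusted p = 0.0381, fold 2.24, 95% interval 1.67 to 3.01). Flrt3 was the 1 of the 8 genes called there, at a background of 0.477% of genes called (62 of 13001). Against the contralateral hemisphere of the same mice it was 1.02 (SE 0.19, adjusted p = 0.0731), with 0.531% of genes called. In the KCl system it was 1.09 (SE 0.22, adjusted p = 0.191) against NaCl sham, where 0.0694% of genes were called, and 1.23 (SE 0.22, adjusted p = 0.0756) against the contralateral hemisphere, where 0.347% were. With the mouse as a block on the 6 libraries of stimulated mice, the contralateral comparison passed after KCl (adjusted p = 0.0179) and missed after light (0.187). The call against optogenetic sham held without SD replicate 1 (adjusted p = 0.00131) and was lost without any other 1 of the 9 libraries (0.0782 to 0.169).

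Over the 6 stimulated mice, with the mouse as a block, Flrt3 rose by 1.12 on the log2 scale in the SD hemisphere against the contralateral one (SE 0.10, limma adjusted p = 0.00387, fold 2.18, 95% interval 1.84 to 2.58). This fit uses libraries of the comparisons within each system and is not independent of them. In it 1.53% of genes were called (197 of 12894), 134 higher and 63 lower, and of the 8 genes Flrt3 and Flrt2 were called higher. The difference in Flrt3 between sides was 1.10, 1.25 and 1.33 in KCl mice 1 to 3 and 0.53, 1.27 and 1.25 in optogenetic mice 1 to 3. All 6 mice had the higher value on the SD side, and mouse 1 of the optogenetic system had the smallest difference. The call held under all 20 alternatives, with changes of 1.06 to 1.24 and adjusted p of 5.19e-04 to 0.0262.

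**Figure D2:**
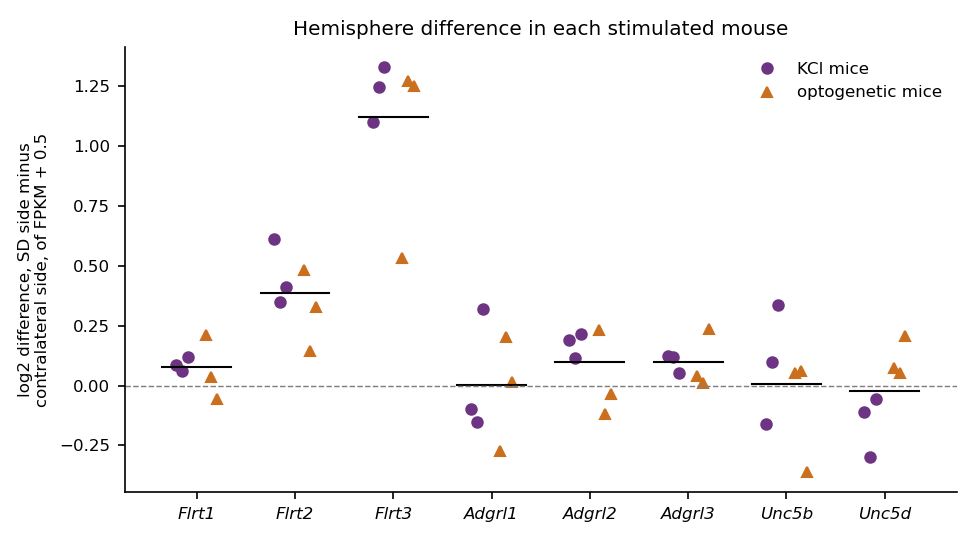
Difference between the SD and contralateral hemisphere of each stimulated mouse in log2(FPKM + 0.5), with circles for KCl mice, triangles for optogenetic mice and a line for the mean of 6 mice. Flrt3 lies between 0.53 and 1.33 and Flrt2 between 0.15 and 0.61, while Adgrl1 and Unc5b scatter on both sides of 0.

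Flrt3 (ENSMUSG00000051379.12) lies on the minus strand of chromosome 2 from 140650914 to 140671469 in GRCm38, and its whole coding sequence of 1947 bases stands in 1 exon. The gene sits within Macrod2, a gene for an ADP-ribose hydrolase on the opposite strand, and shares 0 exon bases with it. The nearest coding-transcript exons of Macrod2 are 34.7 kb away on one side and 198.2 kb on the other. Macrod2 was at 7.35, 6.91 and 7.41 FPKM in the KCl SD hemisphere, at 7.39, 5.88 and 6.60 FPKM in the contralateral hemisphere and at 2.23, 2.38 and 6.65 FPKM in NaCl sham. After light it was at 5.83 to 6.19 FPKM in the SD hemisphere, at 5.40 to 6.09 FPKM in the contralateral hemisphere and at 5.78 to 6.10 FPKM in sham. The optogenetic groups of Macrod2 overlapped, and its KCl SD libraries lay above NaCl sham, where 2 of 3 libraries were low. It was not called in either comparison with sham (log2 fold change 1.01, SE 0.31, limma adjusted p = 0.473 after KCl, and 0.01 after light). Macrod2 was chosen for this check after the data were seen, and its part in the value of Flrt3 was not tested.

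**Figure D3:**
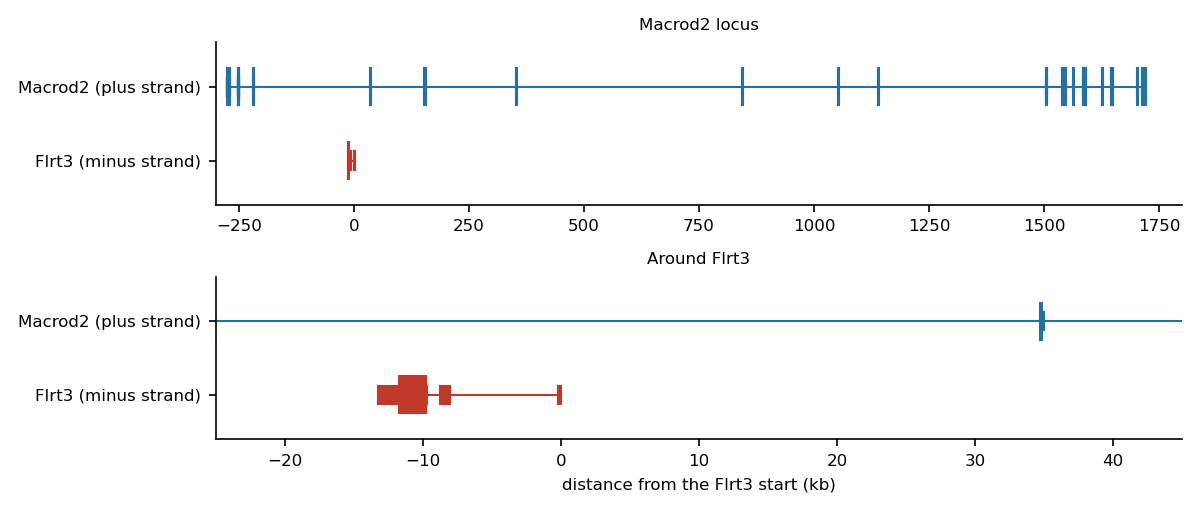
Exons of protein-coding transcripts of Flrt3 and Macrod2 by distance from the Flrt3 start in kb, with tall boxes for coding sequence, over the whole of Macrod2 above and around Flrt3 below. The nearest Macrod2 exon lies 34.7 kb from the Flrt3 start, and no exon of the host overlaps one of Flrt3.

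Because Flrt3 and Flrt2 were the genes called between hemispheres, the promoters of both are shown, from 250 bases before to 50 bases after the RefSeq start in GRCm38.p6. Promoters were found by symbol for 6 of the 8 genes. In Flrt3 (chr2:140671427-140671726, minus strand) the capitals mark TGACATCA at positions -41 to -34, a match to the pattern TGACNTCA that was chosen after this sequence was seen. In Flrt2 (chr12:95691976-95692275, plus strand) they mark CGTCA at positions 42 to 46, the reverse strand of the core TGACG of the cyclic AMP response element.
Flrt3: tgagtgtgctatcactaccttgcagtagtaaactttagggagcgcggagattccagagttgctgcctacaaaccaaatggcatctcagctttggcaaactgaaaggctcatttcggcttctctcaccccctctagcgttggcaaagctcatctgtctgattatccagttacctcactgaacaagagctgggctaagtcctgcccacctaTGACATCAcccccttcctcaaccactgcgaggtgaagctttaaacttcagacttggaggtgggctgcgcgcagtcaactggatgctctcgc
Flrt2: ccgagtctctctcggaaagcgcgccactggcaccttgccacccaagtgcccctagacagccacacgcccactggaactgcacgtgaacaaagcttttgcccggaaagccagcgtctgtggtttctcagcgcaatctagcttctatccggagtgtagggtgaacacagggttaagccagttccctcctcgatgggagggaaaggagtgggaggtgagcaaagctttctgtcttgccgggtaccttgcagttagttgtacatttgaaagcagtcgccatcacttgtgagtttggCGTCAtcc
On either strand TGACNTCA was in 8.83% of 32851 promoters of this length and TGACG in 20.8%. That core was also in a promoter of Adgrl2. CACGTG, an E-box, stood at positions -171 to -166 of Flrt2, and 7.15% of promoters hold it. The full element TGACGTCA (1.79% of promoters) and the AP-1 site TGACTCA (5.20%) were in 0 of the 8 promoters of the 6 genes. These matches are descriptions of letters, not binding sites.

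Among 11858 genes averaging 1 FPKM or more, the 4 whose values followed those of Flrt3 most closely over 18 libraries, each system centred on its mean of log2(FPKM + 0.5), were Klf6, Trib1, Plk2 and Kcnj2. Pearson's r was 0.962 for Klf6, a zinc finger transcription factor, 0.962 for Trib1, a pseudokinase, 0.960 for Plk2, a polo-like kinase induced by neuronal activity, and 0.950 for Kcnj2, an inward rectifier potassium channel (Spearman's rho 0.878, 0.911, 0.858 and 0.889). Within 1 system of 9 libraries r was between 0.947 and 0.973. These values describe 18 libraries of 12 mice, which share the SD and non-SD groups. Over the 6 mice the SD side was above the contralateral side by 1.36 (SE 0.072) for Klf6, 1.85 (SE 0.10) for Trib1, 1.11 (SE 0.038) for Plk2 and 1.47 (SE 0.12) for Kcnj2. NaCl sham replicate 1, the highest of its group for Flrt3 with 8.64 FPKM, was also the highest of its group for these 4 genes. The 4 genes were picked for likeness over these same libraries, so the shared rise and the shared sham library follow in part from that choice.

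**Figure D4:**
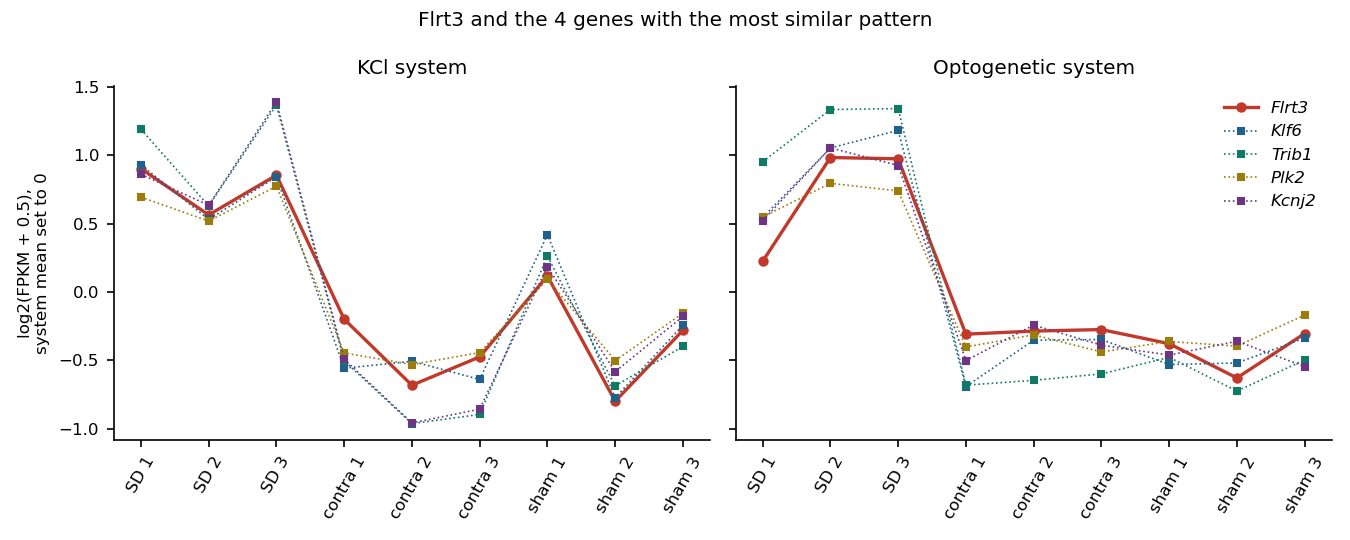
log2(FPKM + 0.5) of Flrt3 and of the 4 genes with the highest Pearson's r to it, each set to a mean of 0 within a system, by library. All 5 genes are highest in the SD libraries, and NaCl sham replicate 1 stands above the other sham libraries of its system.

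Flrt2 stood higher on the SD side of each stimulated mouse, by less than Flrt3. It was at 12.9, 13.5 and 12.9 FPKM in the KCl SD hemisphere, at 8.26, 10.5 and 9.55 FPKM in the contralateral hemisphere and at 14.4, 9.80 and 12.9 FPKM in NaCl sham. The SD libraries lay above the contralateral ones without overlap, as in 6.28% of all genes, and the sham libraries spanned the SD values. After light it was at 10.6, 11.98 and 13.4 FPKM in the SD hemisphere, at 7.43, 10.8 and 10.6 FPKM in the contralateral hemisphere and at 10.1, 8.93 and 9.97 FPKM in sham. After light the SD libraries lay above all sham libraries, as in 6.04% of all genes, and overlapped with the contralateral ones.

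Over the 6 mice Flrt2 was higher by 0.39 in the SD hemisphere than in the contralateral one (SE 0.057, limma adjusted p = 0.0277, fold 1.31, 95% interval 1.19 to 1.44). The differences were 0.61, 0.35 and 0.41 in KCl mice and 0.48, 0.15 and 0.33 in optogenetic mice. The call held without the SD or contralateral library of optogenetic mouse 2 (adjusted p = 0.0401 and 0.0399), was lost without any other 1 of the 12 libraries (up to 0.127), and was lost without the mouse block (0.0790). Within a system Flrt2 was not called. Its change on the log2 scale was 0.09 (SE 0.13, adjusted p = 0.913) for KCl SD against sham and 0.46 (SE 0.13, adjusted p = 0.309) for KCl SD against the contralateral side. For light it was 0.29 (SE 0.14, adjusted p = 0.596) against sham and 0.32 (SE 0.14, adjusted p = 0.566) against the contralateral side. Flrt2 (ENSMUSG00000047414.6) spans chromosome 12 from 95692226 to 95785215 on the plus strand, with its coding sequence of 1980 bases in 1 exon.

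Flrt1, the remaining member of the family, was called in 0 comparisons, beside 0% to 1.53% of all genes called in each. It was at 4.49, 5.56 and 6.02 FPKM in the KCl SD hemisphere, at 4.20, 5.32 and 5.50 FPKM in the contralateral hemisphere and at 5.68, 5.49 and 6.43 FPKM in NaCl sham. After light the SD hemisphere had 5.81, 6.86 and 6.41 FPKM, the contralateral hemisphere 4.95, 6.67 and 6.68 FPKM and sham 6.35, 6.13 and 5.10 FPKM. All groups overlapped. Over the 6 mice its difference between sides was 0.08 (SE 0.048, adjusted p = 0.512), with a 95% interval of the fold of 0.974 to 1.14. Flrt1 (ENSMUSG00000047787.7, chromosome 19, 7092014 to 7105729, minus strand, coding length 2022 bases in 1 exon) lies within Macrod1 on the opposite strand, with 0 shared exon bases. Macrod1 was at 4.08 to 5.19 FPKM in the KCl SD hemisphere and at 4.67 to 6.45 FPKM in NaCl sham.

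Of the latrophilins, the receptors that FLRT proteins engage at synapses, 0 of 3 were called in any comparison. Over the comparisons 0% to 1.53% of all genes were called. Adgrl1 (latrophilin 1, the receptor of alpha-latrotoxin) was at 45.3 to 50.5 FPKM in the KCl SD hemisphere, at 40.4 to 50.4 FPKM in the contralateral hemisphere and at 47.9 to 53.7 FPKM in NaCl sham. After light it was at 46.4 to 59.0 FPKM in the SD hemisphere, at 47.8 to 56.1 FPKM in the contralateral hemisphere and at 44.5 to 58.3 FPKM in sham. Its difference between sides was 0.00 over 6 mice (SE 0.081, adjusted p = 0.993), with an interval of the fold of 0.876 to 1.15, and 3 of 6 mice were higher. Adgrl1 (chromosome 8, 83900105 to 83941954, plus strand) shares 1107 exon bases with Gm10644 on the opposite strand, and the strand setting used to compute FPKM is not given in the sources used here.

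Adgrl2 (latrophilin 2; chromosome 3, 148815583 to 148990555, minus strand) was at 7.71, 7.23 and 8.63 FPKM in the KCl SD hemisphere, at 6.68, 6.63 and 7.36 FPKM in the contralateral hemisphere and at 6.92, 7.76 and 8.72 FPKM in NaCl sham. In the optogenetic SD hemisphere it was at 7.50, 8.67 and 7.98 FPKM, in the contralateral hemisphere at 6.31, 9.47 and 8.19 FPKM and in sham at 7.23, 7.80 and 6.98 FPKM. The groups overlapped in each system. Over 6 mice the difference was 0.10 (SE 0.054, adjusted p = 0.442; interval of the fold 0.980 to 1.17), and 4 mice were higher on the SD side.

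Adgrl3 (latrophilin 3, a high-affinity partner of Flrt3 at synapses; chromosome 5, 81020138 to 81825133, plus strand) was at 8.01, 7.76 and 7.18 FPKM in the KCl SD hemisphere, at 7.33, 7.11 and 6.91 FPKM in the contralateral hemisphere and at 7.35, 6.82 and 7.60 FPKM in NaCl sham. In the optogenetic system it was at 6.13, 6.54 and 7.06 FPKM in the SD hemisphere, at 5.94, 6.48 and 5.91 FPKM in the contralateral hemisphere and at 6.21, 5.32 and 6.17 FPKM in sham. The SD side had the higher value in 6 of 6 mice, by 0.01 to 0.24 on the log2 scale. The mean difference of 0.10 (SE 0.045, adjusted p = 0.377) did not pass, and the interval of the fold ran from 0.993 to 1.15. The intervals of the 3 latrophilins ended at 1.15-fold, 1.17-fold and 1.15-fold, and that of Flrt3 began at 1.84-fold.

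**Figure D5:**
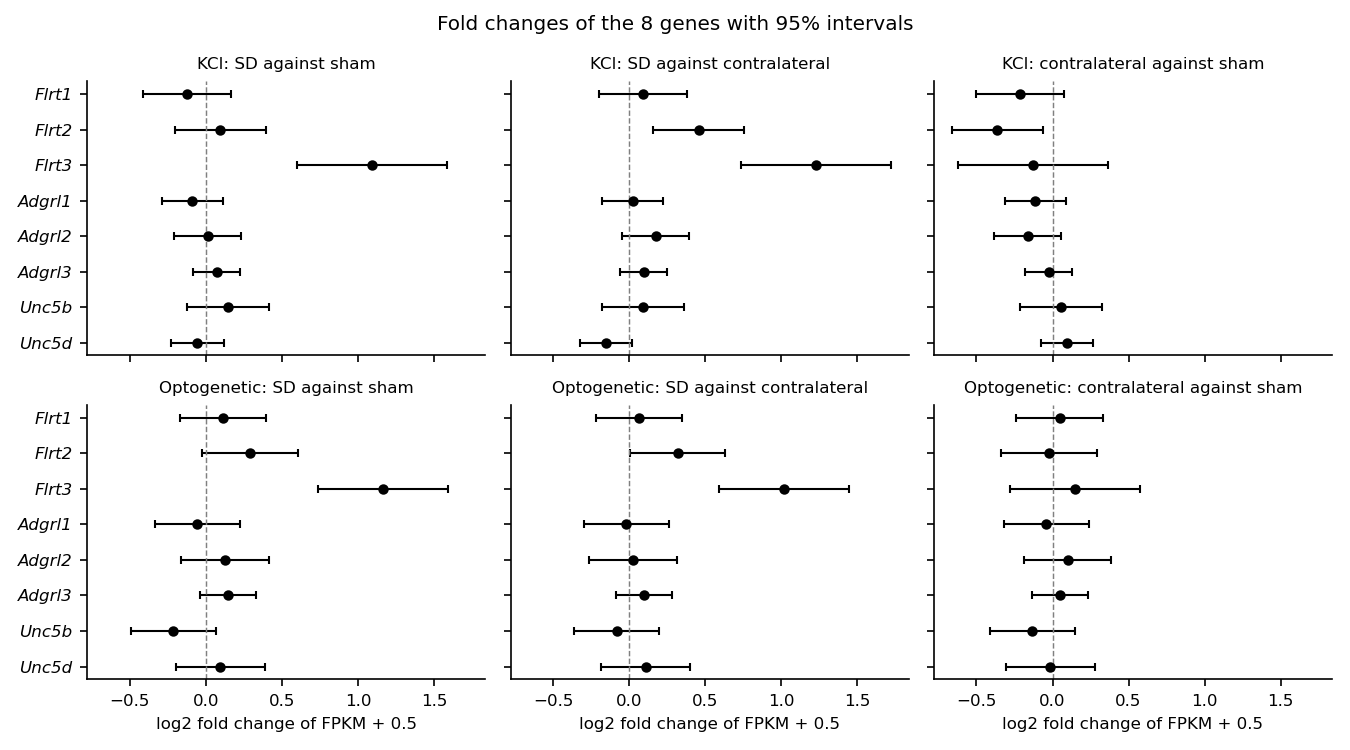
log2 fold changes of FPKM + 0.5 for the 8 genes in the 6 comparisons within a system, with 95% intervals from limma. Flrt3 is at 1.09 and 1.23 after KCl and at 1.16 and 1.02 after light when the SD hemisphere is compared with sham and with the contralateral side, and the contralateral side against sham is at -0.13 and 0.15.

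Unc5b, a dependence receptor for netrin-1 that also binds FLRT3, had the lowest mean over the 9 libraries of either system. It was at 2.61, 2.61 and 3.16 FPKM in the KCl SD hemisphere, at 2.97, 2.40 and 2.40 FPKM in the contralateral hemisphere and at 2.14, 2.57 and 2.73 FPKM in NaCl sham. After light the SD hemisphere had 4.29, 3.55 and 3.11 FPKM, the contralateral hemisphere 4.12, 3.38 and 4.14 FPKM and sham 3.92, 4.18 and 4.80 FPKM. The groups overlapped, and the difference between sides was 0.00 over 6 mice (SE 0.088, adjusted p = 0.990; interval of the fold 0.867 to 1.16). Unc5b lies on chromosome 10 from 60762593 to 60831581 on the minus strand.

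Unc5d, which binds FLRT2 and steers the radial migration of cortical neurons, differed between sides in opposite directions in the 2 systems without passing the test. It was at 6.46, 5.66 and 6.92 FPKM in the KCl SD hemisphere, at 7.00, 7.06 and 7.20 FPKM in the contralateral hemisphere and at 6.54, 6.59 and 6.64 FPKM in NaCl sham. The KCl contralateral libraries lay above both other groups without overlap. In KCl SD against contralateral, 11.0% of genes had all SD libraries below, and in KCl contralateral against sham 4.87% of genes had all contralateral libraries above. In the optogenetic system Unc5d was at 7.41, 6.12 and 5.94 FPKM in the SD hemisphere, at 7.01, 5.89 and 5.08 FPKM in the contralateral hemisphere and at 5.61, 6.86 and 5.66 FPKM in sham. The SD side was below the contralateral side in 3 of 3 KCl mice and above it in 3 of 3 optogenetic mice. The interaction was -0.26 (KCl minus optogenetic difference, SE 0.098, unadjusted p = 0.0321 and adjusted p = 0.587 in limma). Unc5d lies on chromosome 8 from 28646717 to 29219636 on the minus strand.

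The contralateral hemisphere was also set against sham, as a measure of the side that had no SD. After KCl 0 of the 8 genes were called, at 0.00771% of genes called, and in the optogenetic system 0 of 8 at 0.00769%. The log2 fold change was -0.13 for Flrt3 (SE 0.22, adjusted p = 0.957) in the KCl system and of 0.15 (SE 0.19, adjusted p = 0.920) in the optogenetic system. Flrt2 was at -0.36 (SE 0.13, adjusted p = 0.877) and at -0.03 (SE 0.14, adjusted p = 0.985). After KCl the summed activity genes described next were at 106.1 to 192.2 FPKM in the contralateral hemisphere and at 194.9 to 402 FPKM in NaCl sham, and their part in the value of Flrt2 was not tested.

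The size of the response in the KCl and in the optogenetic system was compared by an interaction. The systems differ in genotype and in sham as well as in stimulus, and these cannot be told apart. For Flrt3 the KCl effect minus the optogenetic effect was -0.07 (SE 0.31, adjusted p = 0.984) against sham and 0.21 (SE 0.21, adjusted p = 0.796) between hemispheres, with 95% intervals of -0.73 to 0.59 and of -0.28 to 0.70. For Flrt2 it was -0.20 (SE 0.20) and 0.14 (SE 0.11). Of all genes limma called 0 of 12930 and 0 of 12894 in these 2 tests, with 715 and 1069 at an unadjusted p under 0.05, so the 0 of 8 called here stands beside a background of 0%.

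Activity genes, a list chosen with earlier results of these data known, described which libraries had responded. Over the 6 mice 1.04% of all genes were called higher. All 10 activity genes (Fos, Fosb, Junb, Npas4, Arc, Egr1, Nr4a1, Ptgs2, Dusp6 and Bdnf) rose over the 6 mice. Their sum was 1089 to 1437 FPKM in the KCl SD hemisphere, 106.1 to 192.2 FPKM contralaterally and 194.9 to 402 FPKM in NaCl sham. In the optogenetic system it was 1091 to 1497 FPKM in the SD hemisphere, 130.5 to 149.5 FPKM contralaterally and 128.0 to 230.9 FPKM in sham. The lowest sum among optogenetic SD libraries, 1091 FPKM, was that of mouse 1, which also had the lowest Flrt3 of the group. Flrt3, at 6.74 to 15.2 FPKM over all SD libraries, changed by 1.12, against a median of 3.04 for the 10 activity genes.

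Genes of the wider ligand and receptor system were counted from lists chosen with earlier results of these data known. The 4 teneurins, the other ligands of latrophilins, had 0 called in each comparison, and their differences between sides over 6 mice ran from -0.04 to 0.03. Of 9 measured genes of the netrin and Unc5 system and 7 further partners (FGF receptors, Robo1, Rnd1 and neurexins), 0 were called in each comparison. For these lists and the teneurins, the share of all genes called was 0% to 1.53%, depending on the comparison. Of the other leucine-rich repeat adhesion proteins, 31 tested over 6 mice, 1 rose and 2 fell, beside 1.04% and 0.489% of all genes, and 0 were called within a system. Their median difference between sides was 0.04, beside -0.02 over all genes. Lrfn2, a postsynaptic protein that binds PSD-95, rose by 0.29 (SE 0.039, adjusted p = 0.0191), with 5.64, 5.73 and 5.85 FPKM on the SD side and 4.49, 4.61 and 4.71 FPKM on the contralateral side after KCl, and 7.35, 6.77 and 8.41 FPKM against 5.82, 5.75 and 6.57 FPKM after light. Islr2, which acts with neurotrophin receptors in axon growth, fell by 0.38 (SE 0.056, adjusted p = 0.0273). Lingo3, of the Lingo family of neuronal surface proteins, fell by 0.33 (SE 0.055, adjusted p = 0.0427). Islr2 was lower on the SD side of each of the 6 mice, at 5.86 to 7.48 FPKM against 8.95 to 9.53 FPKM after KCl and at 7.56 to 10.2 FPKM against 10.7 to 12.2 FPKM after light.

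Markers of excitatory neurons were also compared between sides. Summed over 4 genes they were at 450.9 to 466.2 FPKM in the KCl SD hemisphere and at 404.2 to 451.2 FPKM contralaterally, and at 447 to 460.7 FPKM in the optogenetic SD hemisphere and at 405.5 to 422.2 FPKM contralaterally. Their sums in sham, 415.8 to 461.1 FPKM with NaCl and 431.7 to 460 FPKM in the optogenetic system, overlapped with those of the SD side. The sum was higher on the SD side than contralaterally in 5 of 6 mice, by 0.11 on the log2 scale on average over all 6. The genes differed among themselves. Between sides after KCl, Camk2a was at -0.10, Neurod6 at 0.05, Slc17a7 at 0.38 and Tbr1 at 0.41, each with a limma adjusted p above 0.05. Tbr1, a transcription factor of deep-layer neurons, was the 1 of 4 called over 6 mice, at 0.43 (SE 0.063, adjusted p = 0.0273), a larger value than that of Flrt2. None of the 4 was listed at 0. Among astrocyte markers Gja1, the gap junction protein connexin 43, fell by 0.50 in the optogenetic SD hemisphere against sham (SE 0.078, adjusted p = 0.0319), where the sum of the 5 astrocyte markers was 142.7 to 150.9 FPKM against 149.8 to 173.7 FPKM. Each other astrocyte marker was between -0.14 and -0.02 there and was not called. In KCl SD against NaCl sham, Gja1 was at 0.11 (SE 0.13, limma adjusted p = 0.892). The 5 red blood cell genes summed to 203.8 to 324.4 FPKM in the optogenetic SD hemisphere and to 414.3 to 1031 FPKM in sham. None of them was called there (limma adjusted p from 0.397 to 0.522). After KCl their sums were 328.1 to 565.2 FPKM in the SD hemisphere and 368.3 to 634.3 FPKM in NaCl sham. The part of blood, dissected tissue and cell composition in the values of Flrt2 and Flrt3 was not tested.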

How the data were processed

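Cortex RNA was enriched for poly(A), made into stranded libraries and sequenced from both ends on a NovaSeq instrument, per the labels' protocols. The submitters' processing notes name StringTie and GRCm38, without versions, and the strand setting is not given in the sources used here. The deposited tables hold FPKM per library, computed by the authors, for genes with a mean of 0.5 FPKM or more in at least 1 of the groups compared. The authors' group columns were checked to hold mean log2(FPKM + 1). The authors' fold change ratio, p-value and q-value columns were used as an alternative.

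Members and gene lists were chosen with earlier results of these data known. Models on log2(FPKM + 0.5) used limma 3.58.1 (R 4.3.3), per system on 9 libraries in 3 groups without a block, with a prior variance that follows the mean, after a filter at a mean of 0.5 FPKM. Calls required a Benjamini-Hochberg adjusted p under 0.05 over all genes tested. Fold changes on this scale understate those of low genes. A second fit took the 12 libraries of the 6 stimulated mice with the mouse as a block. Left and right libraries of 1 number are by title the sides of 1 mouse, so these numbers pair by design. Their deviations from group means correlated at -0.09 to 0.14. By title, sham mice share only the number. Deviations of the KCl contralateral hemisphere and NaCl sham of 1 number correlated at 0.18, 0.01 and 0.22. For the KCl SD hemisphere and NaCl sham the range was -0.01 to 0.06. In the optogenetic system the SD hemisphere and sham gave -0.18 to -0.08, and the contralateral hemisphere and sham gave -0.17 to 0.16. Whether a number marks more than a name was not tested. The labels do not give the side taken from sham mice or the time of collection. Separate mice are the replicates within a group. Fits without a block measure the spread of libraries within groups and take the 2 sides of a mouse as independent. Fits with the mouse as a block measure how the difference between sides varies among mice. Named list genes are up to 4 called members of a list by smallest p, and the genes most like a member are those with the 4 highest r, for members whose SD libraries stand clear of sham in both systems. Exons came from GENCODE M21 and promoters from RefSeq (GRCm38.p6). Motifs were searched on both strands. Python 3.11.15 and pandas 2.3.3 read the tables. Alternatives were other pseudocounts (0.1 and 1), filters, scalings, a constant prior variance, blocks, the authors' own columns and leaving out each library. A marker gene of excitatory neurons was left out of its list and is not reported here.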

Additional observations from a re-analysis of the deposited data

Results flagged for a closer look

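The difference of Unc5d between hemispheres ran in opposite directions in the 2 systems: below 0 in all 3 KCl mice and above 0 in all 3 optogenetic mice. The interaction of -0.26 (KCl minus optogenetic difference) had an unadjusted p of 0.0321 and an adjusted p of 0.587 over 12894 genes in limma, and it failed the correction. It ranged from -0.31 to -0.19 when 1 library was left out. Groups of 3 libraries were too small to look for samples far from the others.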

How the results depend on the processing

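Of 176 recomputed counts of called genes among the 8, 148 equalled the first count. Counts for the contralateral side against sham and for both interactions equalled it throughout. With the replicate number as a block, the count became 1 in KCl SD against NaCl sham (Flrt3, adjusted p = 0.0387), 1 in KCl SD against the contralateral side (0.0119) and 0 in optogenetic SD against sham (0.0765). By title, sham shares only a number with the stimulated mice, and whether the number marks anything more was not tested. With the mouse as a replicate block on 6 libraries, KCl SD against the contralateral side gave 1, and without the block the 6 mice gave 1 (Flrt3). No other count changed with a block. Optogenetic SD against sham gave 0 with a constant prior variance (adjusted p = 0.0548) and 0 by the q values of the authors' deposited table, which for Flrt3 were 0.507 there and 0.269 to 0.699 in the other comparisons of the SD hemisphere. Leaving out 1 library at a time gave 0 to 1 for KCl SD against the contralateral side (1 without NaCl sham replicate 1 or 2), 0 to 1 for optogenetic SD against sham, 0 to 1 for optogenetic SD against the contralateral side (1 without SD replicate 1, adjusted p = 0.00143) and 1 to 2 for the 6 mice. The log2 fold change of Flrt3 in KCl SD against NaCl sham was 0.86 without sham replicate 2 and 1.31 without sham replicate 1. Over all genes the count called ranged from 0 to 22 in KCl SD against NaCl sham, from 1 to 61 against the contralateral side, from 1 to 68 in optogenetic SD against sham, from 13 to 71 against its contralateral side and from 87 to 227 over the 6 mice. It ranged from 0 to 7 and from 0 to 5 for the contralateral side against sham after KCl and after light, and from 0 to 2 and from 0 to 41 for the interactions against sham and between sides. The cause of these changes was not tested, other than that a fit without a library has fewer samples. Depth is unknown, and 3 mice per group limit the precision.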
